A study of Mus musculus with 42 samples.

Results

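The 10 genes described here encode surface proteins by which mesenchymal stromal cells (MSCs) of bone marrow are commonly recognised or sorted: Cd44, Ly6a, Thy1, Nt5e, Eng, Itgb1, Pdgfra, Pdgfrb, Vcam1 and Lepr. They were taken by symbol from a count table of 45317 gene entries, and all 10 were found in it. The cells were purchased MSCs of long-bone marrow (C57BL/6 mice), used undifferentiated at passage 9 to 10, plated at 15000 cells per cm2, left to attach for 24 h and then treated for 48 h. The treatments were the solvent DMSO at 0.1%, rosiglitazone (ROSI, 100 nM), AGN194204 (4204, 100 nM) and tributyltin (TBT, 50 nM) with 6 RNA libraries each. ROSI activates PPARγ, a nuclear receptor that drives fat cell formation. 4204 activates retinoid X receptors (RXR), the partners of PPARγ, and TBT, an organotin pollutant, binds RXR and PPARγ. The histone marks H3K4me3 and H3K27me3 were each measured by ChIP-seq in 4 libraries per treatment, for DMSO and TBT alone, with 1 input library per treatment. Nothing in the labels tells whether a group's libraries are separate cultures, and the p-values therefore cover the spread between these libraries, which may be technical.

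MSCs are defined in culture by a combination of surface proteins rather than by any single one, together with the absence of blood and endothelial proteins. The members fall into adhesion and matrix receptors (CD44, which binds hyaluronan, integrin β1, which pairs with many α chains, and VCAM-1, a ligand of an integrin), small glycolipid-anchored proteins (Sca-1, encoded by Ly6a, and Thy-1), an enzyme that makes adenosine outside the cell (CD73, encoded by Nt5e), a co-receptor of the TGF-β family (endoglin, encoded by Eng), both receptors for platelet-derived growth factor, and the leptin receptor, which marks a stromal population of adult marrow. H3K4me3 is a histone mark found at active or poised promoters, and H3K27me3 is the mark that Polycomb complexes leave on repressed genes.

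The RNA libraries held 3801758 to 5347365 counts in genes. Of the 10 members, 9 passed the filter on low counts, and Lepr did not. Of 19 blood and endothelial markers that stromal cells should lack and that the table lists, 4 passed it (Cd14, Cd34, Pecam1 and Csf1r). The pan-leukocyte gene Ptprc had 5 reads over all 24 libraries, and Kit and Adgre1 had 0. Cd34, a marker of blood progenitors and endothelium that some cultured stromal cells also carry, stood at 250.1 CPM (counts scaled to library size by the TMM method) in DMSO, the monocyte receptor gene Cd14 at 44.8 CPM and Csf1r at 5.99 CPM. In bulk RNA, fewer cells of a type and less RNA per cell cannot be told apart. The summed level of 6 adipocyte markers (Adipoq, Fabp4, Plin1, Cidec, Lpl and Car3) moved with the treatments, most of it from Lpl, a lipase gene (162 CPM in DMSO and 374 in TBT): the sum was 160 to 172 CPM in DMSO, 245 to 264 in ROSI, 372 to 427 in 4204 and 455 to 496 in TBT, with the defining marker Adipoq at 1 read in the 24 libraries together. The part of this shift in the results on the members was not tested.

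In solvent-treated cells, 8 of the 10 members carried H3K4me3 at their start, and none carried H3K27me3 there in every library. A member was counted when each of the 4 DMSO libraries had an island, a stretch that the authors' caller found enriched over input, within 1 kb of the gene's start. The members without H3K4me3 were Eng and Lepr, and 7 members remained when the island had to cover the start itself, as Pdgfra was then lost. Over genes with a start in the promoter table that were tested for RNA, 95.4% of 8728 had the mark there in all 4 DMSO libraries. Of the 885 such genes with a mean of 3 to 10 CPM, 83.3% did. Eng, at 6.05 ± 1.10 CPM (SD, n = 6), is one of the latter kind. Among genes of the count table that were not tested for RNA, as Lepr was not, 13.7% had the mark. For 6 members the start was the annotated one of the promoter table. For Ly6a, Thy1, Pdgfrb and Vcam1 either end of the gene was allowed, because the gene table gives no strand. For these genes the rule is wider than that of the shares, which cover annotated starts alone.

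The strength of the mark, as the authors' fold of ChIP reads over input reads of the highest island at the start, differed widely among members. In DMSO it was 9.10 ± 1.34 (SD, n = 4) at Itgb1, 8.82 ± 1.98 at Pdgfra, 7.48 ± 2.39 at Cd44 and 6.70 ± 2.27 at Pdgfrb. It was 5.40 ± 2.12 at Vcam1 and 4.97 ± 1.14 at Nt5e. The lowest values were 3.19 ± 0.38 at Ly6a and 2.42 ± 0.58 at Thy1. From Itgb1 to Nt5e, each neighbour in this order overlapped the next. The 4 libraries of Ly6a (2.82 to 3.67) lay below those of Nt5e (3.78 to 6.00). They overlapped those of Thy1 (1.98 to 3.24), where the highest island at either end of the gene was taken. In DMSO libraries 1 and 4 that island lay at the higher-coordinate end of Thy1 (2.37 and 3.24). Islands reaching the lower-coordinate end had folds of 2.14, 2.08, 1.98 and 1.84 in DMSO libraries 1 to 4, all below those of Ly6a. The covered length had another order. Islands at the start spanned 8600 to 14400 bp per DMSO library at Ly6a and 1400 to 2200 bp at Nt5e. At Pdgfrb, islands within 1 kb of either end of the gene, the ends being 39.9 kb apart, together covered 10600 to 14400 bp. The fold is a ratio over the whole island called, so the order of members by fold also moves with that length. At Pdgfrb the fold was 3.53 in DMSO library 2, with an island from -1.9 to 12.5 kb. It was 8.37 in DMSO library 3, with one from -0.7 to 5.3 kb. A merged region at Ly6a of 21200 bp also covered Ly6i and 3 predicted genes, so its reads are not those of Ly6a alone.

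**Figure D1:**
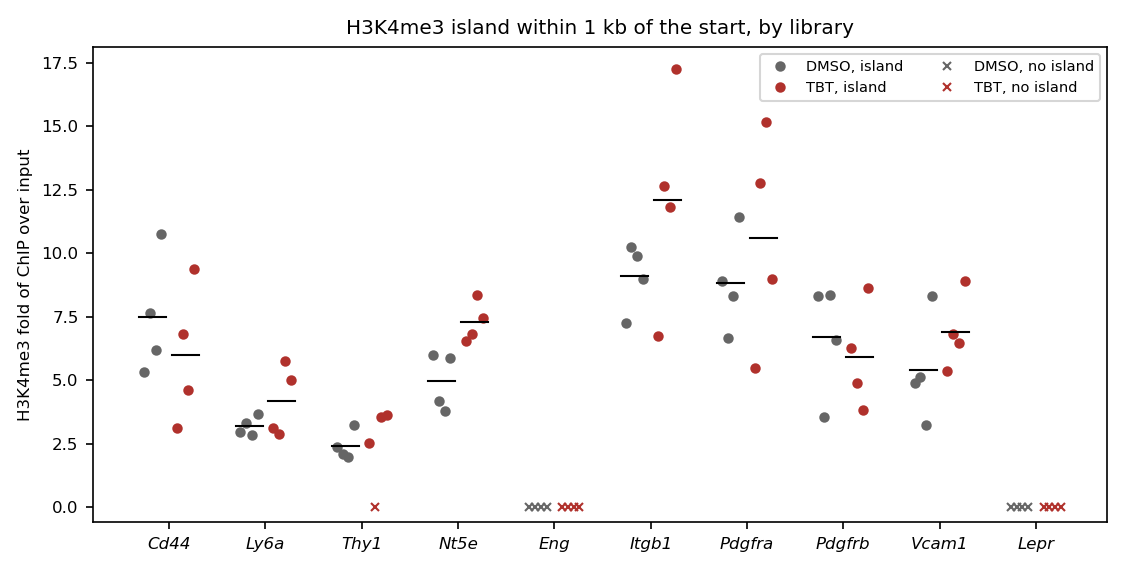
H3K4me3 at the start of each member in 4 DMSO and 4 TBT libraries. The y axis is the authors' fold of ChIP reads over input reads for the highest island within 1 kb of the start. For Ly6a, Thy1, Pdgfrb and Vcam1 either end of the gene counted as the start. Crosses at 0 mark libraries with no island, and lines are means where all 4 libraries had one. Itgb1 and Pdgfra have the highest DMSO means, 9.10 and 8.82, Thy1 the lowest of the marked genes, 2.42, and Eng and Lepr have no island in any of the 8 libraries.

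The sequences before 4 of these starts show how different the underlying promoters are. They are shown because 3 of the genes carried H3K4me3 in every DMSO library and Eng in none. They come from RefSeq on build GRCm38 (mm10), are read 5′ to 3′ on the gene's strand and end just before the first base of the annotated gene. CG dinucleotides, the sites of DNA methylation that CpG islands hold in high number, are in capitals.
Itgb1, chr8:128685404-128685653, plus strand: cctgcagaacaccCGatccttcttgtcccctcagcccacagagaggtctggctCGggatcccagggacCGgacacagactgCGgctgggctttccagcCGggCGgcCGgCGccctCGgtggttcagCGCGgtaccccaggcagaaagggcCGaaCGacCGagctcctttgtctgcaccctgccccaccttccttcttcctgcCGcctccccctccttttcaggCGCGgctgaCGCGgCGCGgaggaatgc
Nt5e, chr9:88327359-88327608, plus strand: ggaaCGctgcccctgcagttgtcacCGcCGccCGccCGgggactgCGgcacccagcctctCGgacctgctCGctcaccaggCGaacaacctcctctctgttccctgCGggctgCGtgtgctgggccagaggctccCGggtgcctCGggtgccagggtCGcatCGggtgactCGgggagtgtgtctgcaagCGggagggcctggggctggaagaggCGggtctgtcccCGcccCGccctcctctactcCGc
Cd44, chr2:102901670-102901915, minus strand: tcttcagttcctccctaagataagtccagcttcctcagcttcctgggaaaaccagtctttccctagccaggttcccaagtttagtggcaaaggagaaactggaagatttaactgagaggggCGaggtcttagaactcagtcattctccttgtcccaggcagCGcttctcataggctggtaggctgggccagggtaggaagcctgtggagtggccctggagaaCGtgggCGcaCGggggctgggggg
Eng, chr2:32646345-32646594, plus strand: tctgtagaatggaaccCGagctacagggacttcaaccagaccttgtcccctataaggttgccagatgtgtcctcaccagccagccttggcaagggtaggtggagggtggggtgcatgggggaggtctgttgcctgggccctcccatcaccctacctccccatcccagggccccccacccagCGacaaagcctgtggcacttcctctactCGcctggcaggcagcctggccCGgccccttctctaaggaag

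Over the full window of 300 bases (250 before the start and 50 after it), Itgb1 held 27 CG dinucleotides and Nt5e 23, more than 84.5% and 78.5% of the 32851 promoters in the table, whose median is 7. Cd44 and Eng held 6 each, and Pdgfra 5. Lepr has 2 listed starts with 18 and 13. H3K4me3 was thus found in DMSO at starts with more CG than the median (Itgb1, Nt5e) and with fewer (Cd44, Pdgfra), and both kinds also occurred without it (Lepr and Eng). The motif TATAAA, searched on both strands, was in none of these windows and in 13.6% of all promoters in the table. A pair of AGGTCA copies in the same direction with 1 base between them, on either strand, the kind of element that RXR bound to PPARγ recognises, was in none of them and in 0.0396% of all promoters; no match says only that these letters are absent from this window. Ly6a, Thy1, Pdgfrb and Vcam1 have no entry in the promoter table.

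Islands of H3K27me3 at the starts of members were in few DMSO libraries each. The median fold over all islands of the mark was 1.33 to 1.47 per DMSO library. At starts, a single DMSO library had one at Eng (fold 2.42), at Lepr (2.34), at Pdgfra (1.64) and at one end of Pdgfrb (1.54), and no DMSO library had one at the other 6 members. Of the 8728 RNA-tested genes with a start in the promoter table, 2.47% had H3K27me3 there in all 4 DMSO libraries. The share was 9.49% of the genes at 3 to 10 CPM, as Eng is, and 13.1% of those not tested for RNA, as Lepr is. In the body of Itgb1, each DMSO library had an island, at 38.5 to 42.7 kb from the start in library 1, 36.3 to 40.1 kb in library 2, 7.5 to 10.1 kb in library 3, and 29.9 to 35.3 kb and 36.1 to 39.9 kb in library 4. Their folds over input were 1.36 to 1.42. In the body of Cd44, islands lay at 4.5 to 6.5 kb and 41.7 to 45.5 kb in DMSO library 2. Library 3 had one at 4.1 to 8.9 kb and library 4 one at 10.7 to 13.1 kb. The folds of these Cd44 islands were 1.25 to 1.55. The body of Lepr had an island in DMSO libraries 1 and 2, and those of Pdgfra and Pdgfrb each had one in library 2.

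With TBT and with 4204, Cd44 and Thy1 fell and Ly6a and Pdgfrb rose. The 2 comparisons share the DMSO libraries. With TBT, 2 of the 9 tested members rose and 2 fell, and of all 12529 genes tested 28.9% passed the threshold (15% higher, 13.9% lower; edgeR's quasi-likelihood test, adjusted p under 0.05 over all genes). With 4204, 3 rose, Pdgfra being the additional one, and 2 fell, against 24.1% of all genes. The median log2 fold change of the 9 members was 0.08 with TBT and 0.14 with 4204, and that of all genes tested -0.01 and 0.00. Scaling to the ERCC spike-in RNA instead of to all genes moved the split of all calls with TBT from 1878 higher and 1745 lower to 1802 and 293, and with 4204 from 1600 and 1414 to 908 and 300. The 4 members called with both agents kept their direction and call under it. Where the RNA libraries of 2 groups are described below as not overlapping, the share of all genes tested that separate likewise was not counted.

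**Figure D2:**
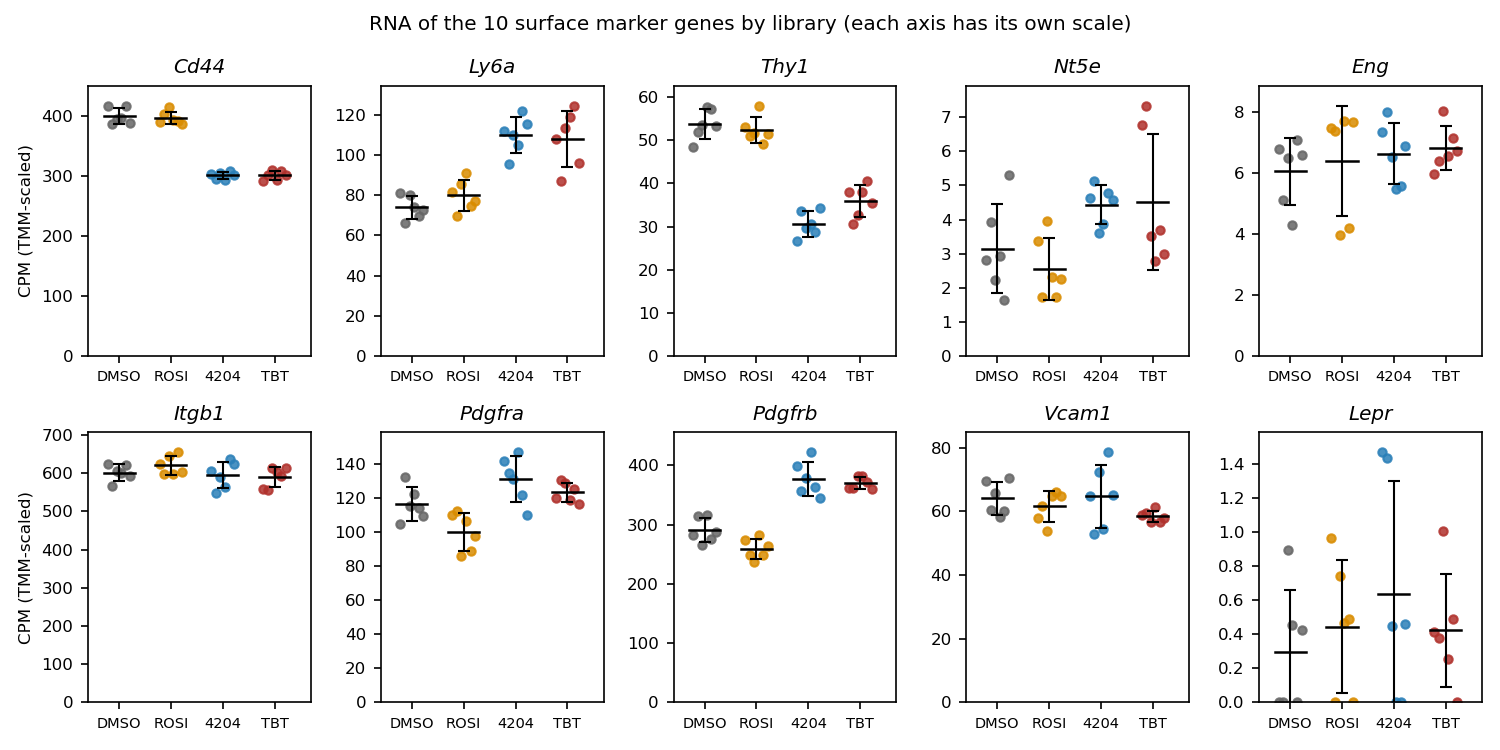
RNA level of the 10 members in each library. The y axis is TMM-scaled CPM, starting at 0 and scaled separately for each gene; each point is 1 of 6 libraries per treatment, and lines and bars are mean ± SD. Cd44 and Thy1 are lower, and Ly6a and Pdgfrb higher, in every 4204 and TBT library than in every DMSO library; Lepr stays below 1.5 CPM. How many of all genes tested separate in this way was not counted.

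Cd44 (chromosome 2, 102811141 to 102901669, minus strand) encodes the main cell-surface receptor for hyaluronan. Its level ran from 386 to 416 CPM in the 6 DMSO libraries, with a median of 395, and from 291 to 309.7 with a median of 301 in TBT. In 4204 it ran from 293 to 308 with a median of 302.3, and in ROSI from 386 to 414 with a median of 392. Every TBT and 4204 library lay below every DMSO and ROSI library. The log2 fold change against DMSO was -0.41 ± 0.03 (SE; edgeR adjusted p = 9.31e-14) with TBT and -0.41 ± 0.03 (adjusted p = 1.5e-13) with 4204, a level of 0.753 and 0.754 times that of DMSO. With ROSI it was -0.01 ± 0.03 (adjusted p = 0.925).

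Thy1 (chromosome 9, 44043384 to 44048579) encodes a glycolipid-anchored glycoprotein of fibroblasts, neurons and T cells. It ran from 48.4 to 57.9 CPM in DMSO (median 53.4) and from 49.2 to 58.0 in ROSI (median 51.6). In TBT it ran from 30.6 to 40.6 (median 36.8) and in 4204 from 26.6 to 34.4 (median 30.1). DMSO and ROSI overlapped almost fully and lay above both other groups. The log2 fold change was -0.58 ± 0.07 (edgeR adjusted p = 3.63e-08) with TBT and -0.81 ± 0.07 (adjusted p = 4.95e-11) with 4204, the largest fall among the members in both comparisons.

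Ly6a (chromosome 15, 74994877 to 74998031) encodes Sca-1, a glycolipid-anchored protein used to sort mouse stromal and blood progenitors. It ran from 66.3 to 81.2 CPM in DMSO (median 73.3) and from 69.7 to 90.8 in ROSI (median 79.3). In TBT it ran from 87.2 to 124 (median 111) and in 4204 from 95.6 to 122 (median 111). The TBT and 4204 libraries lay above all DMSO libraries, while the lowest TBT library lay below the highest ROSI library. The log2 fold change was 0.54 ± 0.07 (edgeR adjusted p = 2.14e-07) with TBT, 0.57 ± 0.07 (adjusted p = 1.03e-07) with 4204 and 0.11 ± 0.08 (adjusted p = 0.617) with ROSI. The gene has close relatives in the Ly6 cluster and a predicted gene overlaps it, so its reads could be shared with them.

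The PDGF receptor genes differed in size of response. Pdgfrb (chromosome 18, 61045127 to 61085067), the receptor of pericytes and stromal cells, ran from 266 to 316 CPM in DMSO (median 285), from 359.9 to 382 in TBT (median 366), from 345 to 421.5 in 4204 (median 371) and from 238 to 281.5 in ROSI (median 256). The TBT and 4204 libraries lay above all DMSO and ROSI libraries. Its log2 fold change was 0.35 ± 0.05 (edgeR adjusted p = 1.48e-07) with TBT and 0.38 ± 0.05 (adjusted p = 3.44e-08) with 4204. Pdgfra (chromosome 5, 75151322 to 75198206), the receptor used to mark stromal progenitors, ran from 105 to 132 CPM in DMSO, from 116.5 to 130.4 in TBT, from 109.7 to 147 in 4204 and from 86.0 to 112.5 in ROSI. Its groups overlapped with DMSO in all 3 comparisons. The log2 fold change was 0.08 ± 0.06 (adjusted p = 0.372) with TBT and 0.17 ± 0.06 (adjusted p = 0.0494) with 4204, and the latter missed the threshold with DESeq2 (adjusted p = 0.0606), with median-ratio size factors (0.0535) and with spike-in scaling (0.376).

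With ROSI, no member passed the threshold in edgeR or in DESeq2, and 1.04% of all genes did (0.615% higher, 0.423% lower). At an unadjusted p under 0.05 there were 2, both PDGF receptors, and 11.3% of all genes. Pdgfra was at -0.22 ± 0.07 (log2 fold change; edgeR adjusted p = 0.109) and Pdgfrb at -0.17 ± 0.05 (adjusted p = 0.0714). Pdgfrb passed the threshold when only the 12 libraries compared were fitted (adjusted p = 0.0328), and both passed without the filter on low counts (0.0207 for Pdgfra and 0.0107 for Pdgfrb). The ROSI libraries of Pdgfra and Pdgfrb overlapped those of DMSO.

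Itgb1 and Vcam1 did not pass the threshold with any agent. Itgb1 (chromosome 8, 128685654 to 128733579) ran from 565 to 625 CPM in DMSO, 556 to 615 in TBT, 549 to 638 in 4204 and 597 to 654 in ROSI, so that all groups overlapped. Its log2 fold change with TBT was -0.03 ± 0.04 (edgeR adjusted p = 0.588), with an approximate 95% interval of -0.10 to 0.04, and the sign turned under spike-in scaling (0.06). With 4204 it was -0.02 ± 0.04 and with ROSI 0.04 ± 0.04. Vcam1 (chromosome 3, 116110020 to 116129688), a ligand through which stromal cells hold blood cells, ran from 58.3 to 70.6 CPM in DMSO, 56.7 to 61.2 in TBT, 53.0 to 78.5 in 4204 and 54.0 to 66.2 in ROSI. Its log2 fold change was -0.13 ± 0.07 (adjusted p = 0.192) with TBT, with an interval of -0.28 to 0.01, 0.01 ± 0.07 with 4204 and -0.06 ± 0.07 with ROSI.

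Nt5e, Eng and Lepr were counted in few reads, which limits what could be detected. Nt5e (chromosome 9, 88327609 to 88372089, plus strand) had 7 to 25 reads per DMSO library, 1.65 to 5.30 CPM with a median of 2.87. In 4204 it ran from 3.60 to 5.12 CPM (median 4.61), in ROSI from 1.72 to 3.94 (median 2.29) and in TBT from 2.77 to 7.33 (median 3.60). TBT libraries 1 and 2 stood at 6.77 and 7.33 CPM and the other 4 at or below 3.69. The log2 fold change with TBT was 0.54 ± 0.27 (edgeR adjusted p = 0.13) and became 0.03 ± 0.29 (adjusted p = 0.96) without those 2 libraries, which were singled out after their values were seen. With 4204 it was 0.48 ± 0.27 (adjusted p = 0.214).

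Eng (chromosome 2, 32646595 to 32682669, plus strand), which overlaps Fpgs in the annotation, ran from 4.29 to 7.06 CPM in DMSO, 5.95 to 8.03 in TBT, 5.46 to 7.99 in 4204 and 3.94 to 7.68 in ROSI, and all groups overlapped. Its log2 fold change with TBT was 0.17 ± 0.18 (edgeR adjusted p = 0.541), with an interval of -0.19 to 0.52. Lepr (chromosome 4, 101717137 to 101815352, plus strand) had 8 reads over the 6 DMSO libraries, 11 in ROSI, 17 in 4204 and 11 in TBT, with 0 reads in 3, 2, 2 and 1 of the libraries. No library exceeded 7 reads, and no test was made. Of the 10 surface markers, Lepr was thus the one with next to no RNA in these cultures.

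**Figure D3:**
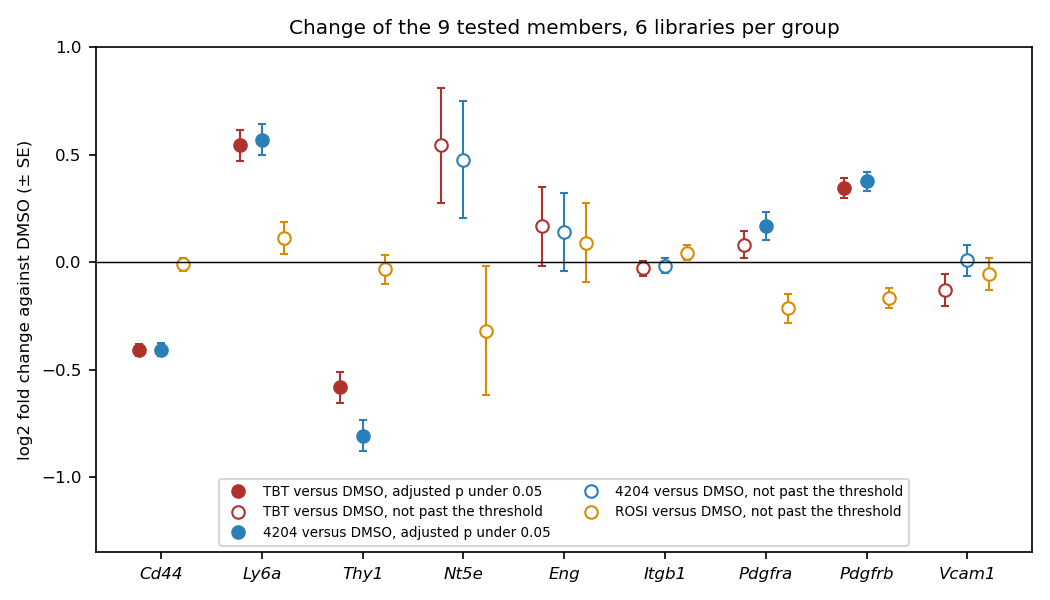
Log2 fold change against DMSO of the 9 members tested, with TBT (red), 4204 (blue) and ROSI (orange). Points are estimates of the edgeR fit and bars are ± SE; filled points passed an adjusted p of 0.05. TBT and 4204 lie side by side for Cd44 (-0.41 and -0.41) and Pdgfrb (0.35 and 0.38), and all ROSI points are open.

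Between the agents, 6 members differed between ROSI and each of 4204 and TBT, and none between TBT and 4204. TBT and 4204, at 50 nM and 100 nM, so at unequal doses, did not differ past the threshold in any member (edgeR and DESeq2 each called none; 1 had an unadjusted p under 0.05, as did 10.1% of all genes), against 0.846% of all genes. That 1 was Thy1, which was 0.22 ± 0.08 higher in TBT than in 4204 on the log2 scale (edgeR adjusted p = 0.213), with an interval of 0.07 to 0.38. For Cd44 the interval of the difference ran from -0.06 to 0.06, for Ly6a from -0.16 to 0.11 and for Pdgfrb from -0.12 to 0.06. 4204 against ROSI, both at 100 nM, gave 6 members past the threshold against 24.7% of all genes, and TBT against ROSI, at unequal doses, gave the same 6 against 28.7%. Cd44 and Thy1 were lower, and Ly6a, Nt5e, Pdgfra and Pdgfrb were higher, in 4204 and in TBT than in ROSI.

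Pdgfra, Nt5e and Pdgfrb had means above DMSO in 4204 and TBT and below it in ROSI. Pdgfra was 0.38 ± 0.07 (log2; edgeR adjusted p = 1.96e-05) higher in 4204 than in ROSI and 0.30 ± 0.07 (adjusted p = 0.000571) higher in TBT, and no TBT library overlapped a ROSI library. Nt5e was 0.80 ± 0.29 (adjusted p = 0.0371) higher in 4204 than in ROSI. It missed the threshold there under spike-in scaling (0.0854) and without the filter on low counts (0.0601). It was 0.86 ± 0.28 (adjusted p = 0.0188) higher in TBT than in ROSI, which fell to 0.35 ± 0.30 (adjusted p = 0.446) without TBT libraries 1 and 2. Under spike-in scaling the median of all genes moved from 0.00 to 0.13 between TBT and ROSI and the split of all calls from 1908 higher and 1690 lower to 2426 and 172, and between 4204 and ROSI from 1697 and 1400 to 1162 and 184. Pdgfrb stood at 0.51 ± 0.05 (log2; edgeR adjusted p = 4.3e-11) between TBT and ROSI, and at 0.64 under spike-in scaling. Scaling moves all genes of a comparison by nearly the same amount. The distance of Pdgfrb from the median of all genes therefore hardly depends on it and is no separate support.

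The partners of the members, from lists chosen with earlier results of these data known, moved in both directions. Around CD44 and hyaluronan, 1 of 12 tested genes rose and 5 fell with TBT. Has2, a hyaluronan synthase, rose by 0.41 ± 0.08 (log2; edgeR adjusted p = 0.000175), and Ezr, which encodes ezrin, a linker of CD44 to actin, fell by 0.19 ± 0.03 (adjusted p = 2.19e-05). Has2 was the single gene of this list called with ROSI, at 0.35 ± 0.08 (adjusted p = 0.0238), and was not called there under spike-in scaling (0.488). The median of the list was -0.12 with TBT, and under spike-in scaling 1 gene of it, not 5, was called lower, Ezr no longer among them.

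Among the PDGF ligands, which bind the receptors encoded by Pdgfra and Pdgfrb, 2 of 4 fell with TBT. Pdgfd, a ligand of the β receptor, was at -0.40 ± 0.12 (log2 fold change; edgeR adjusted p = 0.0101) and Pdgfa, a ligand of the α receptor, at -0.18 ± 0.06 (adjusted p = 0.019), and neither was called under spike-in scaling. Pdgfb, which binds both receptors, had few reads and the opposite sign, 0.79 ± 0.34 with TBT (adjusted p = 0.0822), and rose by 1.76 ± 0.31 with 4204 (adjusted p = 3.06e-05). Pdgfd also missed the threshold without TBT libraries 1 and 2 (0.0604), and Pdgfa without the filter on low counts (0.0606). Of 8 tested α chains that pair with integrin β1, 2 rose and 2 fell with TBT. Itga6 fell by 0.43 ± 0.07 (adjusted p = 9.28e-06) from 127 ± 10.5 to 93.3 ± 15.6 CPM (SD, n = 6 each) and Itga3 by 0.14 ± 0.03 (adjusted p = 0.00037), the latter not called under spike-in scaling (adjusted p = 0.682). Those that rose were Itga5 (0.15 ± 0.04) and Itga11 (0.36 ± 0.14).

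Of the TGF-β ligands, receptors and Smad genes listed around endoglin, 2 of 11 rose and 2 fell with TBT. Tgfb2, a ligand, went from 27.8 ± 2.74 to 45.03 ± 4.04 CPM (log2 fold change 0.69 ± 0.08; edgeR adjusted p = 2.93e-08), and Tgfbr2, the type II receptor, from 348 ± 19.2 to 278 ± 11.8 CPM (-0.32 ± 0.04; adjusted p = 3.27e-08). In the list of extracellular adenosine, the product of the enzyme that Nt5e encodes, 5 of 9 tested genes fell with TBT and none rose, and 2 fell with ROSI. These 2 were Adora2b, an adenosine receptor (-0.71 ± 0.10 with TBT and -0.38 ± 0.10 with ROSI; adjusted p = 5.7e-07 and 0.0381), and Enpp1, an enzyme that cleaves extracellular ATP (-0.31 ± 0.05 and -0.25 ± 0.05; adjusted p = 2.97e-06 and 0.0019). Under spike-in scaling 1 gene of this list was called lower with TBT and none with ROSI, where Adora2b also missed the threshold without the filter on low counts (0.0571).

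Of 11 listed relatives of Ly6a in the Ly6 family, 4 had enough reads to be tested, and these 4 rose with TBT, with a median log2 fold change of 0.48 against -0.01 over all genes tested. Ly6e rose by 0.40 ± 0.08 (edgeR adjusted p = 8.39e-05) and Ly6c1 by 0.55 ± 0.12 (adjusted p = 0.000475), and neither passed with ROSI (-0.12 ± 0.08 and 0.10 ± 0.13). Downstream of the leptin receptor, 2 of 6 genes rose with TBT, Stat3 by 0.24 ± 0.06 (adjusted p = 0.00104) and Socs3, a feedback inhibitor of cytokine receptors, by 0.27 ± 0.07 (adjusted p = 0.00416). None of the 5 listed adhesion molecules that cytokines induce as they do Vcam1 (Icam1, Icam2, Sele, Selp and Madcam1) had enough reads to be tested. Of 4 NF-κB genes in the same list (Nfkb1, Nfkbia, Rela and Relb), none passed with TBT, with adjusted p from 0.0588 to 0.604 in edgeR.

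Other surface and niche markers of stromal cells also split. Of 13 other stromal surface markers, 4 rose and 2 fell with TBT: Alcam, an adhesion molecule, fell by 0.73 ± 0.14 (log2; edgeR adjusted p = 7.74e-05) and Pdpn, podoplanin, by 0.31 ± 0.04 (adjusted p = 5.7e-08). Those that rose were Cd47, Cd164, Cd151 and Cd248, by 0.12 to 0.19. Of 10 genes known from Lepr-positive marrow stroma, 4 rose and 2 fell. The 4 were the transcription factor genes Foxc1 (0.50 ± 0.05; edgeR adjusted p = 4.95e-11), Ebf1 (0.42 ± 0.06) and Ebf3 (0.27 ± 0.05), and Kitl, which encodes stem cell factor (0.50 ± 0.08). Nes, nestin, went from 789 ± 32.1 to 585 ± 23.5 CPM (adjusted p = 7.69e-14) and Grem1, a BMP antagonist, from 344 ± 10.8 to 244 ± 23.2 CPM (adjusted p = 1.87e-11). The chemokine gene Cxcl12 was the single one of these 10 called with ROSI, where it fell by 0.19 ± 0.04 (adjusted p = 0.0125), and this was not called under spike-in scaling (0.285). Cd34 fell with TBT by 0.19 ± 0.04 (adjusted p = 0.000103), which was not called under spike-in scaling (0.291).

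**Figure D4:**
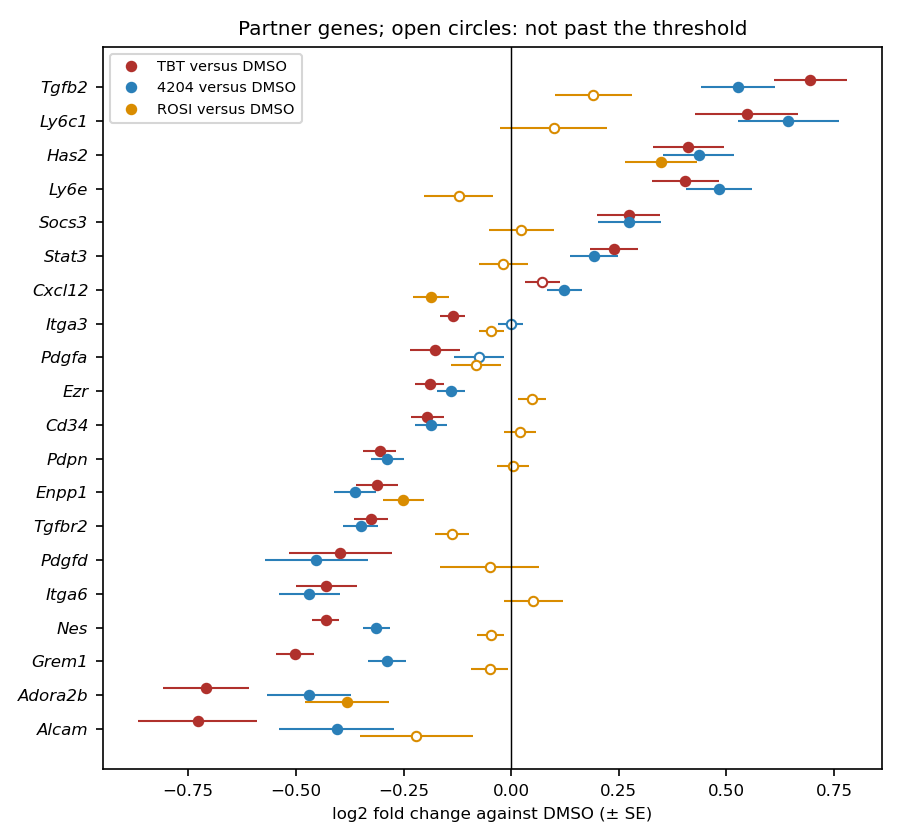
Log2 fold change against DMSO of the 20 partner and neighbour genes named in the text, with TBT (red), 4204 (blue) and ROSI (orange). The x axis is the estimate of the edgeR fit with bars of ± SE; filled points passed an adjusted p of 0.05. The genes run from Alcam (-0.73 with TBT) to Tgfb2 (0.69), and 4 of them, Adora2b, Enpp1, Has2 and Cxcl12, are filled for ROSI.

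For the 2 members with the largest called change under TBT, Thy1 and Ly6a, the genes with the most similar profile over the 24 libraries were sought. Thy1 was followed by Vgf (Pearson's r = 0.94 of log2 CPM), Arhgap22 (0.92) and Tead2 (0.92). Ly6a was followed by Samd9l (0.96), Ifit1 (0.95) and Bst2 (0.95). These values describe a common step between the DMSO and ROSI libraries and the 4204 and TBT libraries. After each group's mean was taken out, r was 0.50, 0.62 and 0.52 for the genes near Thy1 and 0.83, 0.83 and 0.84 for those near Ly6a. All these genes were measured in the same libraries and share their depth and scaling.

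With TBT, no member's H3K4me3 region passed the threshold. All members marked in DMSO kept an island at the start in 4 of 4 TBT libraries except Thy1, which had one in 3 and none in replicate 2. For 7 members, a merged region at the start held an island in all 8 libraries and could be tested. None passed in edgeR's quasi-likelihood test over 12813 such regions, where 0.164% of regions did. Of these 7 regions, 2 had an unadjusted p under 0.05, those of Cd44 and Ly6a, against 8.18% of all regions. The same 2 did not overlap between the groups, against 4.64% of all regions. At Cd44 the DMSO libraries had 133, 119, 124 and 133 CPM of island reads and the TBT libraries 115, 87.1, 92.0 and 80.1. The log2 fold change was -0.43 ± 0.09 (edgeR adjusted p = 0.133), on covered lengths of 8600 to 11200 bp in DMSO and 3600 to 14600 bp in TBT.

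The Cd44 region passed the threshold with DESeq2 (adjusted p = 0.000807) and, in edgeR, without TBT replicate 1 (-0.55, adjusted p = 0.00703). The share of 0.164% of all regions is that of the main edgeR fit and not of these settings. The shares of all regions called under these settings are not given here, so these calls have no background beside them. The RNA of Cd44 fell by 0.41 in the same comparison, in other libraries. At Ly6a the regions had 113, 112, 118 and 121 CPM in DMSO and 123, 131, 157 and 126 in TBT, a log2 fold change of 0.21 ± 0.07 (edgeR adjusted p = 0.439). At Pdgfrb, whose RNA rose, the value was 0.09 ± 0.07 (adjusted p = 0.782). At Itgb1 it was 0.02 ± 0.06, at Pdgfra 0.10 ± 0.06, at Vcam1 0.05 ± 0.12 and at Nt5e 0.10 ± 0.13. The fold of the Nt5e island was 3.78 to 6.00 in DMSO and 6.54 to 8.34 in TBT, without overlap, while its reads overlapped. Mean folds were also higher in TBT at Itgb1, Pdgfra, Ly6a, Vcam1 and Thy1, and lower at Cd44 and Pdgfrb. Over all islands of the mark, the median fold was 2.86 to 5.92 per DMSO library and 4.18 to 5.73 per TBT library. How many other islands separate by fold was not counted. Reads of an island count only what was called in each library, so the values of the regions also move with the length called.

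The number of libraries with an H3K27me3 island differed most between DMSO and TBT at the start of Pdgfra and in the body of Itgb1. Smaller differences occurred at other starts. Eng and Pdgfrb had an island in 1 DMSO library and no TBT library. Cd44, Thy1 and Nt5e had one in 1 TBT library and no DMSO library. At the start of Pdgfra, 1 of 4 DMSO libraries and 4 of 4 TBT libraries had an island. The TBT islands had folds of 1.37, 1.36, 1.41 and 1.88, and the single DMSO island 1.64, all under 2. No region of the mark at a member held an island in all 8 libraries, and none could be tested that way. Among the 2882 regions of H3K27me3 elsewhere that did, the groups of 4.65% did not overlap, a measure that does not cover the regions at Pdgfra and Itgb1. How many of the 70026 merged regions of the mark split between the treatments as these do was not counted. With libraries without an island set to 0 reads, the start of Pdgfra gave a log2 fold change of 2.43 ± 2.53 (edgeR adjusted p = 1.00). H3K4me3 lay within 1 kb of the same start in all 8 libraries, and the RNA of Pdgfra differed by 0.08 ± 0.06. The islands of the mark covered 106 to 167 Mb per DMSO library and 155 to 177 Mb per TBT library, and the part of this in the count of islands was not tested.

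The authors' deposited table of differential H3K27me3 peaks, which holds 4329 peaks, lists 2 at members. In the authors' deposited table the peak 5.75 to 12.3 kb past the start of Pdgfra has log2 concentrations of -0.19 in DMSO and 5.34 in TBT and an FDR of 8.41e-06. Islands lay there in none of the DMSO libraries and in 2 of the TBT libraries. In the authors' deposited table the peak 36.1 to 42.7 kb past the start of Itgb1 has log2 concentrations of 4.5 in DMSO and -0.22 in TBT and an FDR of 0.00208. Islands lay there in 3 DMSO libraries and in none of the TBT libraries, where 1 island lay past it, at 47.1 to 50.5 kb in TBT library 1. RNA of Itgb1 did not pass the threshold with TBT. The authors' deposited table for H3K4me3, with 246 peaks, lists none at a member.

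**Figure D5:**
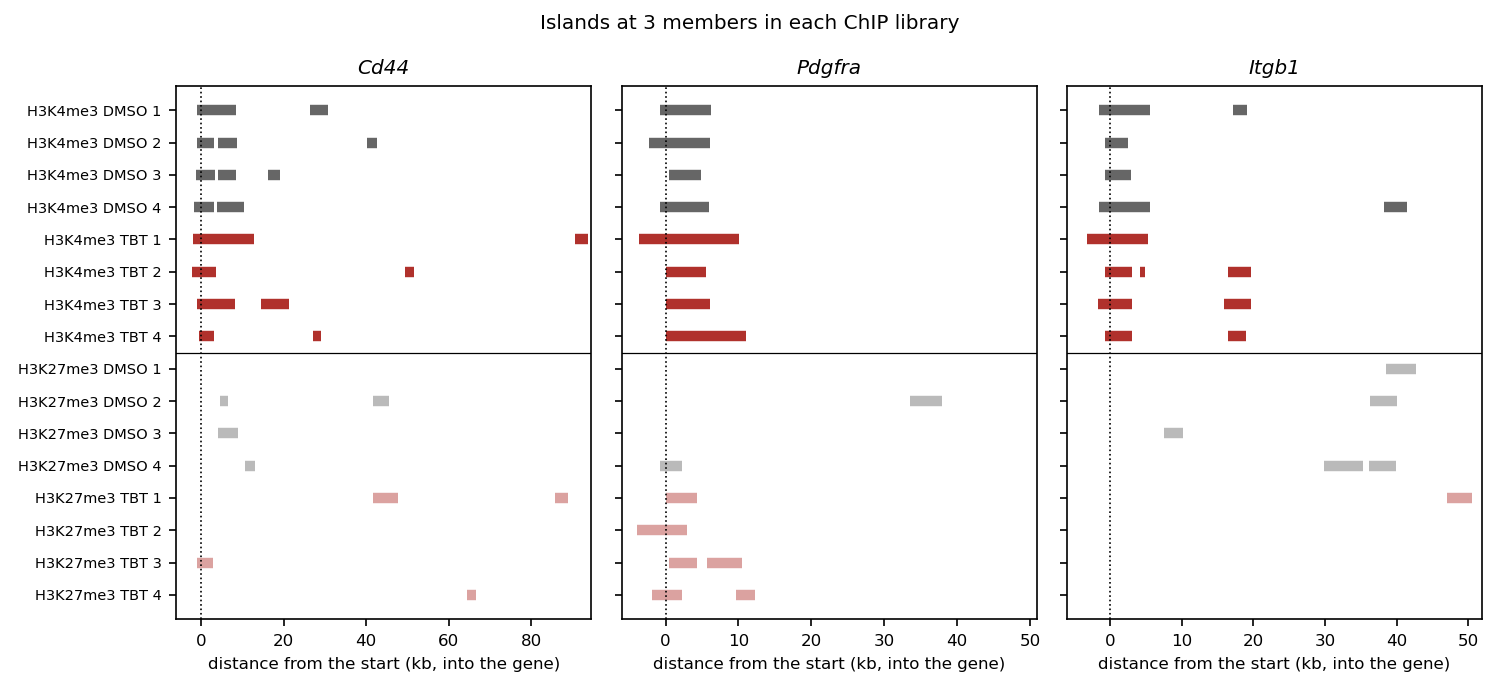
Islands of H3K4me3 (upper 8 rows) and H3K27me3 (lower 8 rows) at Cd44, Pdgfra and Itgb1 in each library, DMSO in grey and TBT in red. The x axis is the distance in kb from the annotated start into the gene, and each bar is 1 island. H3K4me3 lies within 1 kb of the start in all 8 libraries, and H3K27me3 at the start of Pdgfra appears in 1 DMSO library and 4 TBT libraries.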

How the data were processed

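RNA was sequenced in 24 libraries (6 per treatment) and ChIP-seq done in 16 (4 per mark for DMSO and TBT), with 1 input per treatment. The authors deposited raw read counts per gene symbol. Builds GRCm38 and mm10 and the tools STAR, FastQC, SICER, DiffBind, DESeq2 and SAMtools appear, with no version, in the submitters' processing notes. The counting program, and whether it used strand, are not given in the sources used here. Reads in no annotated gene (20.9% to 24.3% of counts) and ambiguous reads (1.85% to 2.02%) were left out. For each ChIP library the authors deposited islands with ChIP and input read counts, a p-value, an FDR and the fold (a ratio of ChIP to scaled input); per the file names the window was 200 bp, the gap 600 bp and the FDR 0.001. The authors' deposited tables of differential peaks give log2 concentrations, a log2 fold and FDR.

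Counts were tested with edgeR 4.0.16 in R 4.3.3 (quasi-likelihood F test, TMM scaling, filterByExpr, 12529 genes, 24 libraries in 1 fit), adjusted by Benjamini-Hochberg over all genes with a threshold of 0.05. edgeR's biological coefficient of variation was 5.24%. Intervals are the estimate ± 1.96 SE. ChIP reads of islands were summed over merged regions with an island in all 8 libraries of a mark and tested the same way. Gene spans and starts come from RefSeq on GRCm38. Alternatives were median-ratio size factors, ERCC scaling, no filter, DESeq2 1.42.0, only the libraries compared, a replicate block and leaving out libraries. Levels are not compared between genes, as no exon lengths were used here.

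The members and lists were chosen with earlier results of these data known. Same-numbered libraries of 2 treatments correlated weakly once group means were taken out (r from -0.05 to 0.12 in RNA and from -0.04 to 0.09 in ChIP-seq). DMSO replicates 1, 2 and 4 of H3K4me3, and 2 and 4 of H3K27me3, still had the TBT library of their own number as the closest, and the others did not. The main fits used no block. Leaving out TBT libraries 1 and 2 was chosen after seeing the data. Named are all members against DMSO, those past the threshold between agents, the 2 smallest adjusted p of each list with TBT and with ROSI among genes past the threshold, and the 3 genes closest in profile to the 2 members most changed by TBT. Pdgfb and other list genes that this rule left unnamed were added after their values were seen. The lists cover integrin α chains, PDGF ligands, TGF-β ligands, receptors and Smad genes, extracellular adenosine, hyaluronan, leptin signalling and the Ly6 family. They also cover cytokine-induced adhesion, other stromal markers, niche genes and markers that stromal cells should lack.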

Additional observations from a re-analysis of the deposited data

How the results depend on the processing

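Members called numbered 4 with TBT under every alternative run, 4 or 5 with 4204, 0 between TBT and 4204, and 5 or 6 between ROSI and each of TBT and 4204. Members called with ROSI numbered 0 as reported, 2 with no filter on low counts, 2 with the replicate block (adjusted p = 0.0321 for Pdgfra and 0.0156 for Pdgfrb, edgeR) and 1 with only the 12 libraries compared. Same-numbered RNA libraries correlated weakly (correlation of same-numbered deviations -0.05 to 0.12), and no other member count moved past 1.5 times with the block. Over all genes, calls with ROSI (77 higher, 53 lower) became 21 and 12 under ERCC scaling, 97 and 102 with no filter, 113 and 110 with the block, and 115 and 121 with only the 12 libraries. Between TBT and 4204 (51 and 55) they became 13 and 7 under ERCC scaling, 86 and 83 with the block, and 34 and 31 with only the 12 libraries. H3K27me3 over the whole gene body, in place of the start, gave 1 member (Itgb1) in place of 0. Member H3K4me3 regions called numbered 0 as reported, 1 with DESeq2, and 0 to 1 when each library was left out in turn (1 without TBT replicate 1). For H3K27me3, no member region could be tested as reported, and with regions in at least 4 of 8 libraries 1 could and was not called, so that the other alternatives gave no value.

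No log2 value that turned sign was called in either setting. Under ERCC scaling these were Itgb1 with TBT (0.057), against ROSI (0.053) and against 4204 (0.061), Cd44 (0.077), Ly6a (0.043) and Pdgfrb (0.046) in TBT against 4204, Vcam1 in TBT against ROSI (0.054), Itga3 with 4204 (0.0089), and Socs3 (-0.022), Pdpn (-0.034) and Cd34 (-0.021) with ROSI. Cd44 in TBT against 4204 was 0.00013 with no filter and 0.0010 with only the 12 libraries. Without TBT libraries 1 and 2 (chosen after seeing the data), Itgb1 with TBT was 0.0085, and in TBT against 4204 Cd44 was 0.0057, Ly6a 0.043, Nt5e -0.45 and Itgb1 0.024. With each library left out in turn, the region of Itgb1 ran from -0.019 (without DMSO replicate 2) to 0.048, that of Vcam1 from -0.0066 (without TBT replicate 1) to 0.15 and that of Nt5e from -0.0042 (without TBT replicate 2) to 0.20. The causes were not tested. Depth limits Nt5e, Eng and Lepr, which had few reads per library.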
